A study of Arabidopsis thaliana with 12 samples.

Results

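The xyloglucan endotransglucosylase/hydrolase (XTH) family of *Arabidopsis thaliana* consists of the 33 genes *XTH1* to *XTH33*, taken here by their locus identifiers, out of 33078 nuclear loci in the table of expression values. Each of the 33 identifiers had 1 row, at the position of that gene in the TAIR10.1 annotation. Transcripts were measured by sequencing mRNA libraries from entire seedlings of the Col-0 wild type (WT) and of the *sig2-2* mutant, a T-DNA insertion line in the same ecotype. *SIG2* encodes a sigma factor that guides the plastid RNA polymerase to its promoters. The seedlings grew on MS medium with sucrose under constant red (Rc) light, of which 50 μmol m−2 s−1 reached the plates, and were harvested at 1 day or at 7 days, so that the 4 conditions were WT and *sig2-2* at 1 day and WT and *sig2-2* at 7 days, each with 3 biological replicates and 12 samples in all.

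Xyloglucan is the main hemicellulose of the primary wall in Arabidopsis and lies on and between the cellulose microfibrils. An XTH enzyme cuts a xyloglucan chain and joins the new end either to another xyloglucan chain, which is transglucosylase activity, or to water, which is hydrolase activity. The first reaction regrafts and inserts wall polymers while a cell expands, and the family is therefore studied in hypocotyl, petiole and root growth, in xylem and in touch responses. The genes are numbered along the family tree, with group 1 taken here as *XTH1* to *XTH11*, group 2 as *XTH12* to *XTH26*, and group 3 as *XTH27* to *XTH33*. The last group contains *XTH31* and *XTH32*, whose products act mainly as xyloglucan hydrolases.

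Members of the family are recognised by their catalytic site, in which a glutamate, an aspartate and a second glutamate alternate with other residues. In the RefSeq coding sequences (TAIR10.1), a pattern of any residue, glutamate, any residue, aspartate, any residue, glutamate, any pair of residues and glycine was found once in 32 of the 33 genes and not in *XTH11*. The 27 coding bases of the site are shown for the 8 genes of group 2 on which much of the comparison turned, with the codons of the glutamate, aspartate and glutamate in capitals.
XTH12: gatGAGattGATttcGAGttcttgggt
XTH13: gatGAAatcGACttcGAGttcttgggt
XTH14: gatGAGattGACttcGAGtttttggga
XTH26: gatGAGataGACttcGAGttcctagga
XTH22: gacGAGataGATttcGAGtttttaggg
XTH23: gacGAGattGACtttGAGttcttggga
XTH24: gatGAGattGATtttGAGttcttgggt
XTH25: gacGAAatcGATttcGAGtttcttggt
No pair of the 32 genes in which the site was found shared all 27 bases. The proteins ranged from 269 residues (*XTH24*) to 357 residues (*XTH29*). The most similar coding sequences were those of *XTH17* and *XTH18*, with 92.2% of aligned bases identical, and of *XTH12* and *XTH13*, with 89.7%. The reads were 55 nt long, and all exonic words of that length occurred once in the TAIR10.1 genome for every member except *XTH18* (98.7% of words), *XTH19* (98.8%) and *XTH21* (93.0%). Reads aligned with mismatches could still be split between the closest pairs, so the separate values of *XTH12* and *XTH13*, and of *XTH17*, *XTH18* and *XTH19*, are uncertain, as is that of *XTH21*. The row of *XTH15* also overlaps a gene on the opposite strand.

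Expression was given as FPKM, the fragments mapped to a transcript scaled by its length and by the fragments mapped in all, with a single value per locus and condition in which the 3 replicates are combined. No replicate error or depth can be taken from such values, no test was made on them here, and the changes below describe them as they stand. *SIG2* itself had 66.5 FPKM in WT against 1.31 FPKM in *sig2-2* at 1 day, and 87.7 against 1.49 FPKM at 7 days. Entire seedlings contain several tissues, and markers of root hair, root tip, endodermis, xylem, green tissue and seed were each detected in at least 1 condition. Changes are given as log2 of the ratio of (FPKM + 1) values, which for genes with low values is smaller than the plain ratio, and a gene was called when this change reached 2-fold. Because FPKM is scaled to transcript length, levels can be compared between genes.

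Of the 33 members, 29 reached 1 FPKM in some condition, 22 reached it in every condition, and 4 in none. Summed over the family, the 1-day levels were 1368 FPKM in WT against 1286 FPKM in *sig2-2*, and the 7-day levels were 1145 FPKM and 1416 FPKM. While the sums were of like size in the 4 conditions, the genes that made them up differed. At 1 day the first 5 genes were the same in both genotypes, with *XTH9* at 275 FPKM in WT against 210.0 FPKM in *sig2-2*, and *XTH16* at 270.0 and 204 FPKM. *XTH31* (151 and 155 FPKM), *XTH4* (122 and 117 FPKM) and *XTH5* (159 and 112 FPKM) followed. These 5 genes made up 71.4% of the family's sum in WT and 62.2% in *sig2-2*.
At 7 days *XTH4* led in both genotypes, at 256 FPKM in WT against 387 FPKM in *sig2-2*. Behind it the order differed, with *XTH7* and *XTH9* next in WT, at 214 and 186 FPKM, and *XTH24* and *XTH7* next in *sig2-2*, at 250.5 and 141 FPKM. *XTH24* took up 17.7% of the family's sum in *sig2-2* at 7 days and 3.46% in WT, whereas *XTH9* took up 5.81% in *sig2-2* and 16.2% in WT. At 1 day group 2 as a whole made up 40.3% of the sum in WT against 42.4% in *sig2-2*. At 7 days it made up 15.3% in WT against 29.7% in *sig2-2*, of which *XTH24* alone was 3.46% and 17.7%, so that the share of the remaining group 2 genes was about the same in both genotypes.

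**Figure D1:**
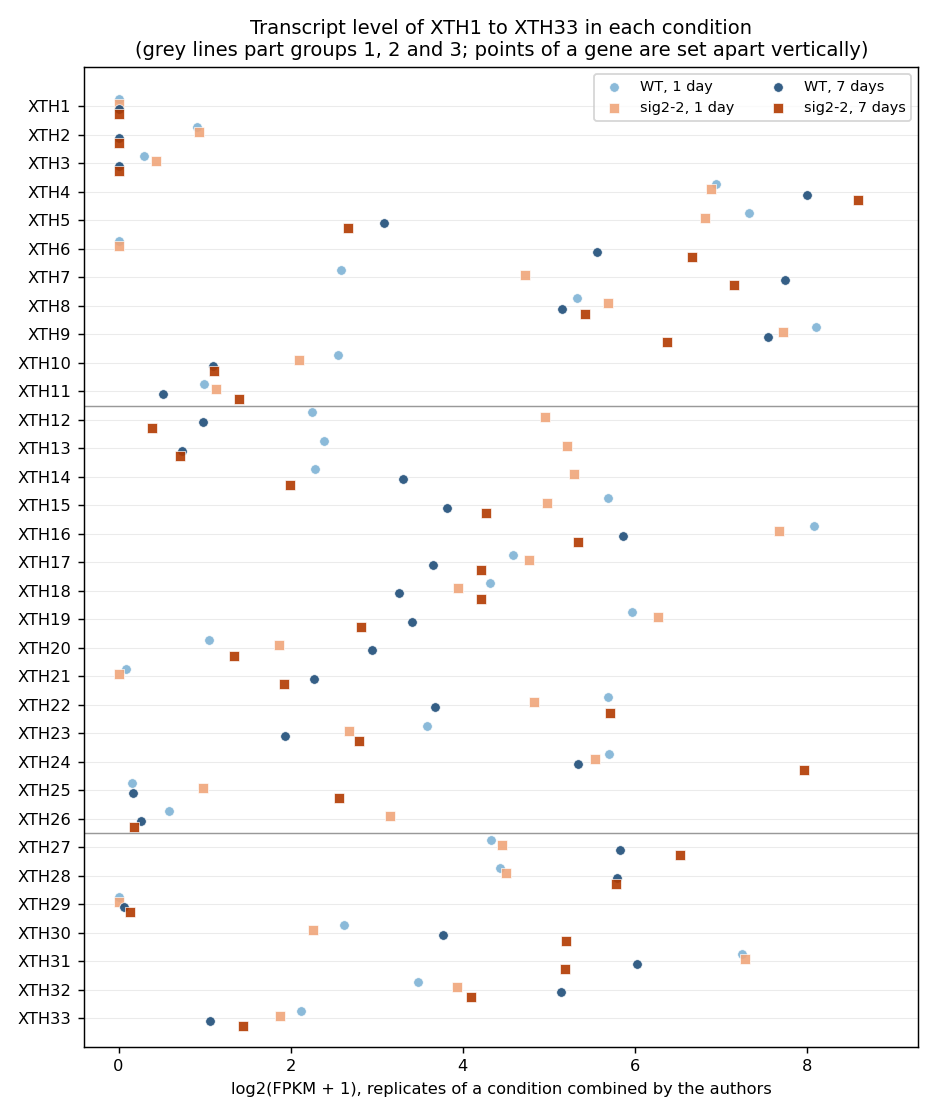
Level of each XTH gene on the log2(FPKM + 1) axis, with 1 point per condition (circles for WT, squares for *sig2-2*, pale for 1 day, dark for 7 days) and grey lines between the family groups. *XTH12*, *XTH13*, *XTH14* and *XTH26* have their highest point in *sig2-2* at 1 day, and *XTH24* has its highest point in *sig2-2* at 7 days.

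**Figure D2:**
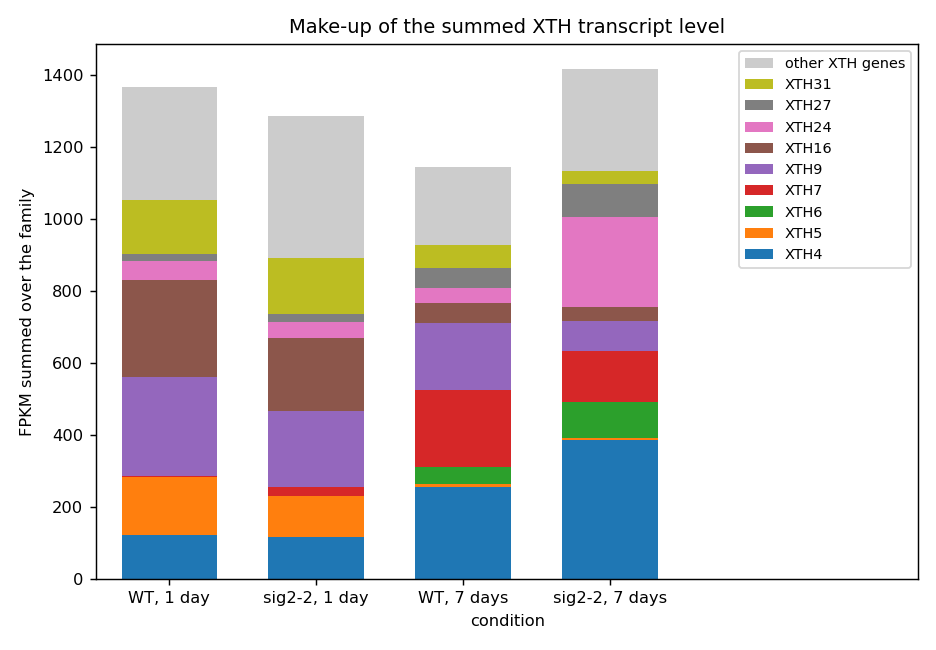
Stacked bars of the FPKM values summed over the 33 genes in each condition, from 0, with 9 abundant members in colour and the rest in pale grey. The sums lie between 1145 and 1416 FPKM, while the *XTH24* segment is 39.6 FPKM high for WT and 250.5 FPKM high for *sig2-2* at 7 days.

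To see which members differed between the genotypes early in development, *sig2-2* was compared with WT at 1 day. Past 2-fold, 5 of the 33 genes were higher in *sig2-2*, against 1.66% of all loci, and 0 were lower, against 0.653%, or 2.32% of all loci in either direction. Among loci that reached 1 FPKM in either genotype, which included 26 XTH genes and the same 5, 2.92% were higher and 1.15% lower, or 4.06% in all. The median change over the 33 genes was 0.02, and that over all loci was 0.00. The median gene of the family was thus close to its WT level at 1 day, and a small set stood apart from the rest. The 5 genes were *XTH14*, *XTH13*, *XTH12*, *XTH26* and *XTH7*, of which the first 4 belong to group 2 and are known for expression in roots, including root hairs.

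*XTH14* (AT4G25820, chromosome 4 from 13130297 to 13131788) had 3.88 FPKM in WT against 38.2 FPKM in *sig2-2* at 1 day, 9.85-fold higher, with a log2 change of 3.01. Its product has transglucosylase activity and has been studied where root hairs emerge. *XTH13* (AT5G57540, chromosome 5 from 23302996 to 23304049) had 4.24 FPKM in WT against 36.0 FPKM in *sig2-2* (log2 change 2.82). Its near copy *XTH12* (AT5G57530), which lies 1 gene away, was at 3.74 and 30.03 FPKM (log2 change 2.71). *XTH26* (AT4G28850), which like *XTH14* is associated with root hair formation, was at 0.501 FPKM in WT against 7.90 FPKM in *sig2-2* (log2 change 2.57). All 4 genes were below 5 FPKM in WT, with *XTH26* the lowest. On the log2 scale used here their changes ran from 2.57 to 3.01, and as plain ratios from 8.04 to 15.8, with *XTH26* highest, so that the order among them depends on the pseudocount.
At 7 days none of the 4 was higher in *sig2-2*. *XTH14* was then at 8.88 FPKM in WT against 2.99 FPKM in *sig2-2* (log2 change −1.31). *XTH12* was at 0.973 and 0.310 FPKM, *XTH13* at 0.673 and 0.634 FPKM, and *XTH26* at 0.2001 and 0.133 FPKM, all too low for a change to be read.

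Root hair markers were examined next. At 1 day, 3 of the 4 markers were past 2-fold higher in *sig2-2* and none was lower, with *EXPA7*, a root hair expansin, at 5.47 FPKM in WT against 30.6 FPKM in *sig2-2* (log2 change 2.29). *COBL9*, needed for hair tip growth, was at 2.84 and 12.8 FPKM, and *LRL3*, a hair transcription factor, at 2.54 and 11.3 FPKM. *RHD6*, which acts upstream in hair cell fate, was at 9.21 and 11.9 FPKM and stayed under 2-fold. At 7 days all 4 were lower in *sig2-2*, with *EXPA7*, at 4.76 and 1.47 FPKM (log2 change −1.22), past 2-fold. *COBL9* (1.55 and 0.574 FPKM), *RHD6* (2.26 and 1.30 FPKM) and *LRL3* (2.51 and 1.80 FPKM) were under 2-fold on this scale. All these values are low, so that the pseudocount weighs on the changes. Summed over the 4 markers, 1-day seedlings had 20.1 FPKM in WT against 66.6 FPKM in *sig2-2*, and 7-day seedlings had 11.1 against 5.13 FPKM. No marker of the list was at 0 in any condition. The markers of root tip and endodermis, *PLT1*, *PLT2*, *SCR* and *CASP1*, summed to 33.6 FPKM in WT against 34.8 FPKM in *sig2-2* at 1 day, although *CASP1* alone was listed at 0 in WT and at 1.35 FPKM in *sig2-2*. The 7 seed storage and oil body markers summed to 42.8 FPKM in WT against 88.1 FPKM in *sig2-2* at 1 day, with 6 past 2-fold higher and none at 0. The remaining marker, *OLEO2*, was lower, at 26.7 FPKM in WT against 16.1 FPKM in *sig2-2* (log2 change −0.69). Green tissue markers summed to 2422 FPKM in WT against 3897 FPKM in *sig2-2*, with none past 2-fold. Of these, *CA1* was near 0 in both genotypes, at 0.0454 FPKM in WT and listed at 0 in the mutant. In RNA from entire seedlings, more hair cells and more transcript per hair cell cannot be told apart, and the part of root hair, seed and green tissue in the XTH values was not tested.

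**Figure D3:**
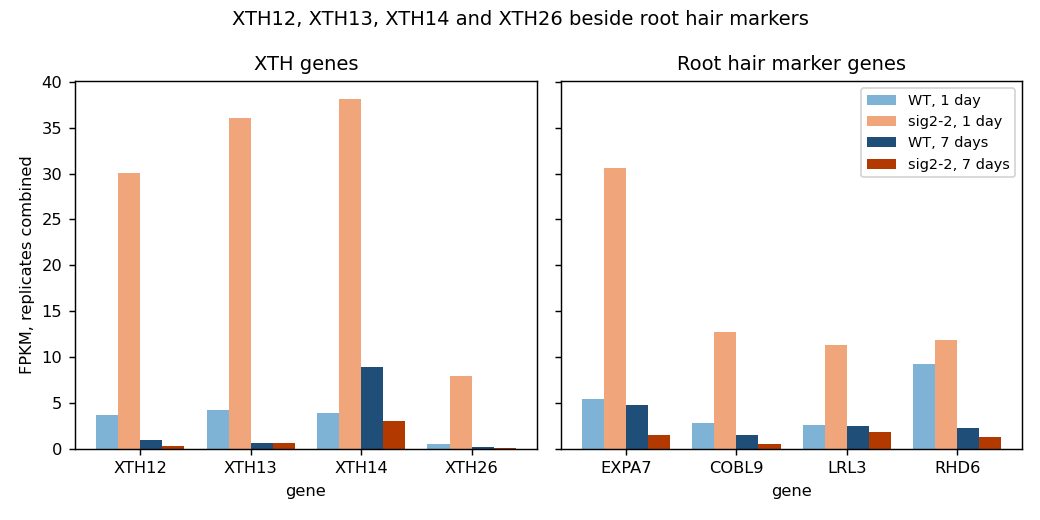
FPKM of *XTH12*, *XTH13*, *XTH14* and *XTH26* (left) and of 4 root hair markers (right), with 1 bar per condition, from 0 and on a shared axis. In *sig2-2* at 1 day *XTH14* stands at 38.2 FPKM and *EXPA7* at 30.6 FPKM, and every gene shown is higher there than in the other 3 conditions.

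Because these genes moved together, their promoters were examined in the RefSeq sequence, over 300 bases from 250 before to 50 after the start annotated in TAIR10.1. The root hair element, searched on both strands after the values had been seen, was found in 0 of the 33 XTH windows and in 0.867% of 27443 windows of protein-coding genes. TATAAA on either strand was found in 23 of the 33 windows and in 52.1% of all windows. Below are the last 60 bases before the start of *XTH13* (TAIR10.1, chr5:23304096-23304155, minus strand) and of *XTH26* (chr4:14244230-14244289, plus strand), shown because both hold TATAAA, in capitals, with its first base at position −28 and position −39 from the start.
XTH13: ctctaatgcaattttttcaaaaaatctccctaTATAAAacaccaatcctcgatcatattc
XTH26: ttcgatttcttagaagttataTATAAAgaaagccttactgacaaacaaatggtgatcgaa
A match of these letters is a description of the window and does not show that a factor binds there.

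*XTH7* (AT4G37800, chromosome 4 from 17775474 to 17777397) was the remaining gene past 2-fold at 1 day and the only one of group 1. It was at 4.995 FPKM in WT against 25.4 FPKM in *sig2-2*, 5.09-fold higher (log2 change 2.14). At 7 days it was abundant in both genotypes and lower in the mutant, at 214 FPKM in WT against 141 FPKM in *sig2-2* (log2 change −0.60). In WT its level at 7 days was 42.9 times that at 1 day, and in *sig2-2* it was 5.56 times.

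Below the threshold at 1 day, the largest changes downward were those of *XTH23*, *XTH22* and *XTH15*. *XTH23*, also named *XTR6*, was at 11.04 FPKM in WT against 5.41 FPKM in *sig2-2* (log2 change −0.91), short of 2-fold on this scale although the plain ratio was 2.04-fold lower. *XTH22*, better known as the touch-induced *TCH4*, was at 50.7 and 27.3 FPKM (log2 change −0.87), and *XTH15*, which takes part in petiole growth in shade, at 50.5 and 30.5 FPKM (log2 change −0.71). *XTH5* was at 159 and 112 FPKM (log2 change −0.50), while *XTH9* and *XTH16* had log2 changes of −0.39 and −0.40. The most abundant members at 1 day were thus either lower in *sig2-2* by less than 2-fold or, as for *XTH4* and *XTH31*, close to WT, with log2 changes of −0.06 and 0.04.

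At 7 days, when *sig2-2* was compared with WT after a week in Rc light, 5 of the 33 genes were past 2-fold higher in *sig2-2*, against 2.71% of all loci, and 4 were past 2-fold lower, against 2.35%, or 5.05% of all loci in either direction. Among loci that reached 1 FPKM in either genotype, which included 26 XTH genes and the same 9, 4.46% were higher and 3.87% lower, or 8.33% in all. The median change was 0.00 for the 33 genes, members at 0 included, and for all loci, and among loci that reached 1 FPKM in either genotype it was 0.32 for the XTH genes and 0.00 for all. *XTH11* and *XTH25* passed this filter only through *sig2-2*, where they were higher, so the filter itself raised the XTH median. No shift of the family is read from it. The genes that were higher were *XTH24*, *XTH25*, *XTH22*, *XTH30* and *XTH6*, and those that were lower were *XTH20*, *XTH14*, *XTH9* and *XTH32*. With a pseudocount of 5 in place of 1, *XTH25*, *XTH20*, *XTH14* and *XTH32* came under 2-fold, at 0.95, −0.84, −0.80 and −0.90.

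*XTH24* (AT4G30270, chromosome 4 from 14819192 to 14820592), first described as the meristem gene *MERI5B* and also annotated as *SEN4*, was among the genes that were higher. It was at 39.6 FPKM in WT against 250.5 FPKM in *sig2-2* at 7 days, 6.32-fold higher (log2 change 2.63), after 51.0 and 45.4 FPKM at 1 day. Of the 4 conditions, *sig2-2* at 7 days was the one in which it stood high. *XTH22* (AT5G57560, chromosome 5 from 23307130 to 23308282) had 11.9 FPKM in WT against 51.6 FPKM in *sig2-2* at 7 days (log2 change 2.03). This *sig2-2* value was close to that of WT at 1 day, 50.7 FPKM. *XTH25*, also named *XTR3*, was at 0.123 FPKM in WT against 4.90 FPKM in *sig2-2* (log2 change 2.39), a change that starts from a value near 0 and so depends on the pseudocount.
*XTH30* (AT1G32170), a group 3 gene linked to salt tolerance, was at 12.7 FPKM in WT against 35.9 FPKM in *sig2-2* (log2 change 1.43). *XTH6* (AT5G65730) was listed at 0 in both genotypes at 1 day, and at 46.2 FPKM in WT against 100.2 FPKM in *sig2-2* at 7 days (log2 change 1.10). *XTH18*, at 8.58 and 17.6 FPKM, and *XTH23*, at 2.81 and 5.96 FPKM, lay just short of 2-fold on this scale, with log2 changes of 0.96 and 0.87. *XTH27*, which is known from developing tracheary elements, was at 56.0 and 91.3 FPKM (log2 change 0.69), and *XTH4* had a log2 change of 0.59.

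Since *XTH22* is induced by touch and by brassinosteroids, the promoters were also searched on both strands for CACGTG, for CGTGTG and CGTGCG, elements bound by brassinosteroid-responsive factors, and for TGTCTC, an auxin response element. The first and second of these can overlap. CACGTG was in 0 of the 33 windows and in 7.68% of all windows, and CGTGCG was in 0 and in 1.96%. CGTGTG was in 4 of the 33, *XTH2*, *XTH8*, *XTH23* and *XTH25*, and in 6.52% of all windows. TGTCTC was in 3, *XTH3*, *XTH6* and *XTH21*, and in 14.2% of all windows. Among the genes with CGTGTG, *XTH8* had a log2 change of 0.27 in *sig2-2* at 7 days, and *XTH2* was listed at 0 in both genotypes. A link between the element and the changes was not tested. The stretches before the start are shown for *XTH23* (TAIR10.1, chr4:13128274-13128393, plus strand) and *XTH25* (chr5:23306441-23306600, minus strand), the genes with CGTGTG whose log2 changes in *sig2-2* at 7 days were 0.87 and 2.39, with CGTGTG and TATAAA of either strand in capitals.
XTH23: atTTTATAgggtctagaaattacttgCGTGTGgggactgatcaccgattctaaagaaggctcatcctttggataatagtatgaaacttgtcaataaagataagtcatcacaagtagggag
XTH25: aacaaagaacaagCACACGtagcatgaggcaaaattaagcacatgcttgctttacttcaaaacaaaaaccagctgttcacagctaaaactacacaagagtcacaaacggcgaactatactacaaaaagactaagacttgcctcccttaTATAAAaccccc
In *XTH23* the element lies at position −94, and in *XTH25* it lies on the opposite strand at position −147. *XTH22* itself held neither CACGTG nor CGTGTG in its window.

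Of the genes lower in *sig2-2* at 7 days, *XTH9* (AT4G03210, chromosome 4 from 1415949 to 1417352) was the most abundant. It was at 186 FPKM in WT against 82.2 FPKM in *sig2-2*, 2.26-fold lower (log2 change −1.17). *XTH9* is expressed in shoot apices and elongating internodes. *XTH20* (AT5G48070), expressed in the root vasculature, was at 6.72 FPKM in WT against 1.54 FPKM in *sig2-2* (log2 change −1.61). *XTH32* (AT2G36870), 1 of the hydrolases of group 3, was at 34.3 and 16.1 FPKM (log2 change −1.04), just past 2-fold. The other hydrolase gene, *XTH31*, was at 64.2 and 35.6 FPKM (log2 change −0.83), so that both were lower in the mutant at this age. Both had been at or above the WT level at 1 day, *XTH32* at 10.2 FPKM in WT against 14.3 FPKM in *sig2-2*. *XTH16*, at 57.1 and 39.4 FPKM, and *XTH5*, at 7.47 and 5.35 FPKM, were lower by less than 2-fold, as they had been at 1 day.
Green tissue markers, *RBCS1A*, *RBCS3B* and *CA1*, summed to 33809 FPKM in WT against 24172 FPKM in *sig2-2* at 7 days, with 3 of 3 lower and none past 2-fold. The xylem markers summed to 79.98 and 88.3 FPKM, with 0 of 5 past 2-fold. The part of tissue make-up in the XTH values at 7 days was not tested.

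Between the ages, *XTH14* was the only gene past 2-fold in both comparisons of genotype, higher at 1 day and lower at 7 days. This depended on the pseudocount. At 0.1 in place of 1, *XTH12* (2.97 at 1 day and −1.39 at 7 days), *XTH20* (1.24 and −2.06), *XTH23* (−1.02 and 1.06) and *XTH25* (2.35 and 4.49) were also past 2-fold at both ages, and at 5 no gene was, as *XTH14* was at −0.80 at 7 days. The difference between the ages was not tested. Across the 29 genes that reached 1 FPKM in some condition, which are not independent replicates, the changes at 1 day and at 7 days had a Pearson correlation of −0.37 and a Spearman correlation of −0.37. The genes were chosen on the same values. *XTH26* entered only through *sig2-2* at 1 day and *XTH25* only through *sig2-2* at 7 days. The correlations therefore only describe this set. Between the ages the log2 change of *XTH22* differed by 2.90, from −0.87 to 2.03, and that of *XTH24* by 2.79. In the other direction *XTH14* differed by −4.31, *XTH12* by −3.30, *XTH13* by −2.86 and *XTH7* by −2.74. *XTH12* and *XTH13* were under 1 FPKM in both genotypes at 7 days, too low for a change at that age to be read. Their differences are therefore mainly their changes at 1 day.

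**Figure D4:**
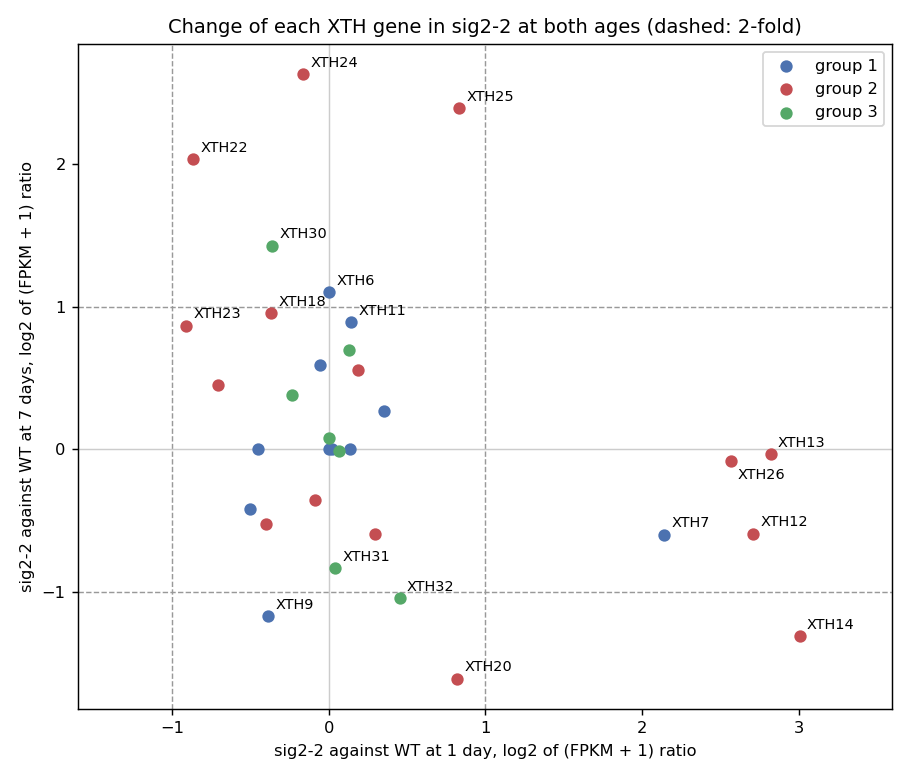
Each point is an XTH gene, with its log2 change in *sig2-2* against WT at 1 day on the x axis and at 7 days on the y axis, coloured by family group, and dashed lines at 2-fold. *XTH7*, *XTH12*, *XTH13*, *XTH14* and *XTH26* lie to the right of 2-fold at 1 day, *XTH24*, *XTH25* and *XTH22* lie highest at 7 days, and *XTH14* is alone past 2-fold on both axes with the pseudocount of 1 used here.

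Several members lie side by side on 1 strand, and only some neighbours had like changes. On chromosome 5, *XTH12*, *XTH13*, *XTH25* and *XTH22* lie in this order on the minus strand, with 686 bases between *XTH13* and *XTH25* and 565 bases between *XTH25* and *XTH22* in TAIR10.1. *XTH12* and *XTH13* were higher in *sig2-2* at 1 day, and *XTH25* and *XTH22* at 7 days. On chromosome 4, 363 bases separate *XTH23* from *XTH14*. At 1 day the first was at 11.04 FPKM in WT against 5.41 FPKM in *sig2-2* while the second was at 3.88 and 38.2 FPKM. At 7 days both pointed the other way, with *XTH23* higher and *XTH14* lower in the mutant. In the trio *XTH24*, *XTH18* and *XTH19*, also on chromosome 4, *XTH24* and *XTH18* were higher in *sig2-2* at 7 days, by 2.63 and 0.96 on the log2 scale, whereas *XTH19* was at 9.64 FPKM in WT against 6.06 FPKM in *sig2-2* (log2 change −0.59).

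**Figure D5:**
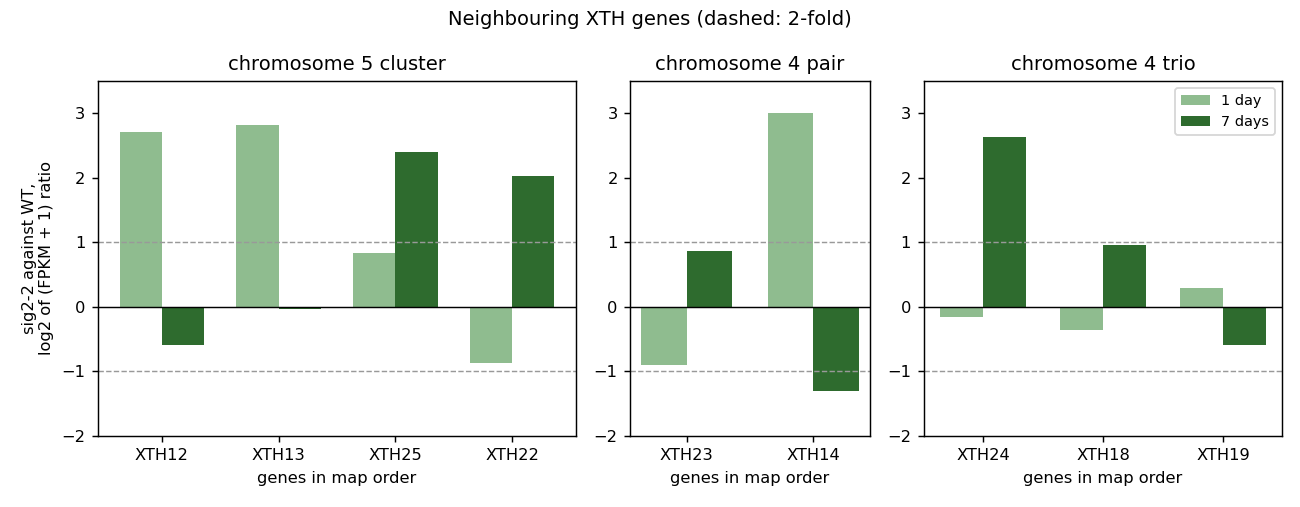
Bars give the log2 change in *sig2-2* against WT at 1 day (pale) and 7 days (dark) for XTH genes in map order within 3 clusters, with dashed lines at 2-fold. *XTH23* and *XTH14*, with 363 bases between them, point in opposite directions at each age.

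The genes *XTH17* to *XTH21* are known from roots, where *XTH17*, *XTH18*, *XTH19* and *XTH20* are expressed in different zones. At 1 day *XTH19* was at 61.9 FPKM in WT against 76.1 FPKM in *sig2-2*, *XTH17* at 22.9 and 26.2 FPKM, and *XTH18* at 18.9 and 14.4 FPKM. *XTH20* was at 1.07 and 2.65 FPKM (log2 change 0.82), and *XTH21*, whose loss shortens roots, was at 0.0633 FPKM in WT and listed at 0 in *sig2-2*. None of the 5 genes was past 2-fold at 1 day, although *XTH20* reached a log2 change of 1.24 with a pseudocount of 0.1. At 7 days *XTH17* was at 11.6 and 17.6 FPKM and *XTH21* at 3.84 and 2.78 FPKM, so that of the 5 genes *XTH17* and *XTH18* were higher and *XTH19*, *XTH20* and *XTH21* were lower in *sig2-2*.

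The comparison of 7 days with 1 day was made within each genotype. In WT 10 genes were past 2-fold higher at 7 days, against 12.0% of all loci, and 12 were past 2-fold lower, against 8.43%, so that 22 of the 33 were called against 20.4% of all loci. In *sig2-2* 9 genes were higher, against 12.3% of all loci, and 9 were lower, against 9.58%, so that 18 were called against 21.9% of all loci. Among loci that reached 1 FPKM at either age, 19.5% were higher and 13.7% lower in WT, or 33.2% in all, and 19.9% were higher and 15.5% lower in *sig2-2*, or 35.5% in all. These loci included 26 XTH genes in WT and 29 in *sig2-2*, with all those called. With a pseudocount of 5, for which no share of all loci is given, 6 genes were higher and 7 lower in WT, and 7 were higher and 9 lower in *sig2-2*. The median change with age was −0.36 in WT and −0.26 in *sig2-2*, against a median of 0.00 over all loci. Among loci that reached 1 FPKM at either age it was −0.74 for the XTH genes against −0.10 for all loci in WT, and −0.26 against −0.06 in *sig2-2*. With a pseudocount of 0.1 the median of the 33 genes in WT was −0.97, and with 5 it was −0.16. Across the 29 genes, again chosen on the same values, the changes with age in WT and in *sig2-2* had a Pearson correlation of 0.71 and a Spearman correlation of 0.66.
*XTH5* was the gene with the largest decrease in WT, from 159 FPKM at 1 day to 7.47 FPKM at 7 days, 21.3-fold lower, and it was 21.0-fold lower in *sig2-2*. *XTH16* followed a like course, 4.73-fold lower in WT and 5.18-fold lower in *sig2-2*. *XTH19* was 6.42-fold lower in WT and 12.6-fold lower in *sig2-2*. The levels of these 3 genes differed more between the ages than between the genotypes.
*XTH28*, known from stamen filaments, was likewise higher at 7 days in both genotypes, with 20.7 FPKM in WT against 21.7 FPKM in *sig2-2* at 1 day, then 54.5 against 53.9 FPKM. *XTH8* was the steadiest of the abundant genes, between 34.8 and 50.6 FPKM in all 4 conditions.
Elsewhere the course with age differed between the genotypes. *XTH22* was 4.28-fold lower at 7 days than at 1 day in WT and 1.89-fold higher in *sig2-2*. *XTH24* was 1.29-fold lower in WT and 5.52-fold higher in *sig2-2*. *XTH14* was 2.29-fold higher in WT and 12.8-fold lower in *sig2-2*, and *XTH20* was 6.31-fold higher in WT and 1.72-fold lower in *sig2-2*. *XTH32* was 3.37-fold higher in WT and 1.13-fold higher in *sig2-2*. These comparisons of age use the same 4 values as the comparisons of genotype and are not independent of them.

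The remaining members were low. *XTH1* was listed at 0 in every condition. *XTH2* and *XTH3*, its relatives in group 1, were at 0.887 and 0.232 FPKM in WT and 0.911 and 0.351 FPKM in *sig2-2* at 1 day and were listed at 0 at 7 days. *XTH29* was listed at 0 at 1 day and reached 0.0990 FPKM in *sig2-2* at 7 days. *XTH10* was at 4.88 FPKM in WT against 3.29 FPKM in *sig2-2* at 1 day, and at 1.15 FPKM in both genotypes at 7 days. *XTH11* had 0.986 against 1.19 FPKM at 1 day, then 0.426 against 1.65 FPKM. *XTH33*, whose product is held at the plasma membrane, had 3.33 against 2.68 FPKM at 1 day, then 1.08 against 1.72 FPKM. At such levels the pseudocount largely sets the change, and no difference between the genotypes is read from them. *XTH10* and *XTH33* do count among the genes called lower with age in WT, and both came under 2-fold there with a pseudocount of 5.

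Other genes that make and trim xyloglucan, or that belong to the same wall or touch responses, were examined as well. Of 25 such genes, none was past 2-fold in *sig2-2* against WT at either age, where 2.32% of all loci at 1 day and 5.05% at 7 days were, with median log2 changes of 0.11 at 1 day and −0.02 at 7 days. Among the 14 genes of xyloglucan synthesis, 12 were higher in *sig2-2* at 1 day and 4 at 7 days, with median log2 changes of 0.10 and −0.19. The directions given for these lists count differences of any size, and no shift of the pathway is read from them. *CSLC12*, which encodes a synthase of the glucan backbone, was at 3.71 FPKM in WT against 7.46 FPKM in *sig2-2* at 1 day (log2 change 0.84). *XLT2*, a galactosyltransferase for the side chains, was at 20.8 FPKM in WT against 12.1 FPKM in *sig2-2* at 7 days (log2 change −0.74), and *XXT1*, a xylosyltransferase, was at 8.37 and 13.5 FPKM (log2 change 0.64).
The 3 genes for enzymes that trim xyloglucan in the wall were all higher in *sig2-2* at 7 days, with *BGAL10*, a β-galactosidase, at 15.3 and 23.4 FPKM (log2 change 0.58). Of the 6 cellulose synthase genes of the primary wall, all were higher in *sig2-2* at 1 day, by at most 0.49 on the log2 scale, and *CESA5* was at 45.4 FPKM in WT against 29.6 FPKM in *sig2-2* at 7 days (log2 change −0.60). The calmodulin-like touch gene *TCH3* was at 48.9 and 84.5 FPKM at 7 days (log2 change 0.78), and *TCH2* was at 39.7 and 45.8 FPKM, compared with the log2 change of 2.03 for *XTH22*.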

How the data were processed

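RNA was from 3 biological replicates of each of 4 conditions. With Cufflinks and Cuffdiff (versions not given in the sources used here), the authors estimated the 1 deposited FPKM value per locus and condition from the replicates together. The aligner, genome build and annotation are not given in the sources used here. The supplement calls the values RPKM. Rows of notes and blanks (4) were left out, and columns of the authors' own ratios, statistics and p- and q-values were not used. The planned fit on replicate columns could not be run, since the values are combined. Changes are log2 of (FPKM + 1) ratios, with no filter, called at 2-fold and read against all 33078 loci. Listed genes were matched by locus identifier, and their rows overlap the same genes in RefSeq TAIR10.1, and positions of genes are those of the deposited table, counted from 1. Sequences are RefSeq TAIR10.1. All 33 members are named, and other lists are given by counts with the largest changes. The family was chosen for description, and the lists and tests were chosen, with earlier results of these data known, although the members were taken by identifier. Alternatives were pseudocounts of 0.1 and 5, a filter at 1 FPKM, centring on medians, equal sums without the most abundant locus (AT2G01021, 32.6% of the summed FPKM in WT at 1 day and 5.45% at 7 days), the tables of single conditions, and calls at 1.5-fold and 4-fold. In *sig2-2* AT2G01021 made up 25.5% of the summed FPKM at 1 day and 11.4% at 7 days. Calculations used Python 3.11.15, pandas 2.3.3, numpy 2.4.6, scipy 1.17.1, matplotlib 3.10.9 and Biopython 1.88.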

Additional observations from a re-analysis of the deposited data

Results flagged for a closer look

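With a pseudocount of 1, *XTH14* was the gene whose genotype change pointed in opposite directions at the 2 ages with both past 2-fold. Its log2 change in *sig2-2* against WT was 3.01 at 1 day and −1.31 at 7 days. With a pseudocount of 5 the change at 7 days was −0.80, under 2-fold, and with 0.1 *XTH12* (2.97 and −1.39), *XTH20* (1.24 and −2.06) and *XTH23* (−1.02 and 1.06) also changed direction with both ages past 2-fold. *XTH12* was under 1 FPKM in both genotypes at 7 days, too low for its change at that age to be read. The difference between the ages was not tested.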

How the results depend on the processing

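Depth and replicate spread are unknown for these combined values, so a change past 2-fold carries no error. The tables of single conditions held the same values as those used here, so their calls could not differ. Centring and equal sums altered no call among the 132 single-gene changes. They moved the median change over loci at 1 FPKM or more in every condition by about 0.03 or less on the log2 scale. Under a pseudocount of 0.1, 7 XTH genes were higher and 1 was lower in *sig2-2* at 1 day, and 8 were higher and 5 lower at 7 days. With age, 16 genes were then lower in WT and 12 in *sig2-2*, and the median change in WT was −0.97. With a pseudocount of 5, 1 gene was lower in *sig2-2* at 7 days, 6 genes were higher and 7 lower with age in WT, and the medians with age were −0.16 in WT and −0.10 in *sig2-2*. Without loci under 1 FPKM in both conditions, the median was 0.32 for *sig2-2* against WT at 7 days and −0.74 for age in WT. The first of these was raised by *XTH11* and *XTH25*, which passed the filter only through *sig2-2*. At 1.5-fold, 7 genes were higher and 3 lower in *sig2-2* at 1 day, and 10 were higher and 8 lower at 7 days. At 4-fold, 3 were higher and 0 lower in *sig2-2* at 7 days, 3 were higher and 4 lower with age in WT, and 5 were higher with age in *sig2-2*. For the other folds and pseudocounts no share of all loci is given, so whether these counts stand out was not tested. *XTH14*, *XTH20*, *XTH25* and *XTH32* at 7 days came under 2-fold with a pseudocount of 5, at −0.80, −0.84, 0.95 and −0.90. The direction of a change past 2-fold could not turn under these alternatives, so they give no check of direction. No paired analysis was possible because the files hold 1 combined value per condition, and for the same reason no replicate could be left out.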
